A study of Danio rerio with 12 samples.

Results

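The ribotoxic stress kinases were followed here by their mRNA: the kinase Zak (map3k20), the kinases that activate p38 and JNK (map2k3, map2k6, map2k7), both p38α genes (mapk14a, mapk14b) and both JNK1 genes (mapk8a, mapk8b). Of these 8 names, 7 could be tied to a gene in the count tables of 25432 genes, which gave 7 genes. For map2k3 no separate gene was matched, since the RefSeq gene table (assembly GRCz12tu) lists that name as a synonym of map2k6. Both JNK1 genes carried the same name, so which is mapk8a and which is mapk8b was not settled. They are called mapk8-I (ENSDARG00000009870) and mapk8-II (ENSDARG00000031888) below.

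Znf598 is a ubiquitin ligase that recognises collided ribosomes and marks them for quality control. Zak is a second reader of stalled and collided ribosomes. It is a MAP3 kinase that, as worked out mainly in mammalian cells, passes the signal to the MAP2 kinases, and these switch on p38 and JNK by phosphorylation. The counts measure how much mRNA of each kinase was present and do not measure kinase activity.

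Whole zebrafish embryos were compared in 4 groups of 3 libraries. Wild-type embryos (WT) were of the AB strain, and MZznf598 embryos came from znf598 homozygous mutant mothers and fathers, so that both the maternal and the zygotic gene carried a frameshift deletion. Embryos were pooled at 1 hpf (hours post fertilization), when the mRNA is maternal, or at 6 hpf, when many maternal mRNAs have been cleared and the embryo transcribes its own genome. The passage between these states is the maternal-to-zygotic transition (MZT). The mutant line and the AB strain have different parents, so the mutation and other differences between the lines cannot be told apart. The labels give 3 separate samples per group and do not say whether they are separate clutches, so p-values measure the spread between these samples.

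Library totals ran from 7144704 to 12162660 counts, and levels are given as CPM, counts scaled to a library of fixed size after TMM normalisation. The mRNA of znf598 itself ran from 62.7 to 141.8 CPM in the WT libraries and from 3.45 to 10.5 CPM in the MZznf598 libraries, which matches every genotype label. The summed level of 7 zygotic gastrula markers was at most 2.7 CPM in every 1 hpf library and at least 3384 CPM in every 6 hpf library, which matches every stage label. WT library 3 stood apart at both stages. Its counts differed from those of the other WT libraries of the same stage by 15.2 to 21.5 in chi-square per degree of freedom, against 2.71 to 5.50 in all other pairs of one group. Where leaving both out changed the call of a kinase gene, the value without them is also given.

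The one kinase gene called between the genotypes was mapk14b (ENSDARG00000028721), one of the zebrafish copies of the gene for p38α, the kinase that phosphorylates stress-response transcription factors and further kinases. Its mRNA fell from 1 to 6 hpf in WT embryos and was higher in MZznf598 than in WT embryos at 6 hpf. The study followed this gene by qRT-PCR with a designed primer pair. The pair is printed as the study's own sequence for this gene. Both are 20 bases long, and where they lie in the transcript and whether they tell it from mapk14a was not determined here.
mapk14b forward primer: gtccatcatccacgccaaac
mapk14b reverse primer: gtggcaggcgagaaaacatc

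At 1 hpf, mapk14b stood at 138.6, 136.5 and 165.9 CPM in the WT libraries. It stood at 166.6, 164.2 and 173.0 CPM in the MZznf598 libraries of that stage. The groups overlapped only through WT library 3. At 6 hpf, the WT libraries gave 78.1, 78.8 and 95.7 CPM. The MZznf598 libraries gave 163.9, 159.2 and 147.9 CPM, all below the lowest 1 hpf library of that genotype at 164.2 CPM. All 3 MZznf598 libraries lay above all 3 WT libraries at this stage, as was so in either direction in 28.0% of all genes tested, and the WT libraries of 6 hpf were the lowest of the 12.

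At 6 hpf the mean level of mapk14b was 157.0 ± 8.24 CPM (SD, n = 3) in MZznf598 and 84.2 ± 9.95 CPM (SD, n = 3) in WT, a 1.86-fold ratio. The log2 fold change was 0.90 (SE 0.10), with an adjusted p of 0.000156 in edgeR's quasi-likelihood test with Benjamini-Hochberg adjustment over the 15829 genes tested. Genes were called at an adjusted p below 0.01. Of the 7 kinase genes, chosen with earlier results of these data known, mapk14b was the one called higher and none was called lower. No excess is read from this beside all genes tested, of which 1.76% were called higher and 3.51% in either direction. The latter share itself moved with the libraries, from 1.56% without MZznf598 library 3 of 6 hpf to 5.37% without WT library 3 of 6 hpf, and it was 11.3% without both WT libraries numbered 3. Leaving out 1 library at a time gave a log2 fold change between 0.84 and 0.99 and an adjusted p of at most 0.00158. Without both WT libraries numbered 3 it was 1.00 (adjusted p = 2.23e-07). When edgeR tested against a change of 1.5-fold rather than against 0, the adjusted p was 0.0511 and the call was lost.

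**Figure D1:**
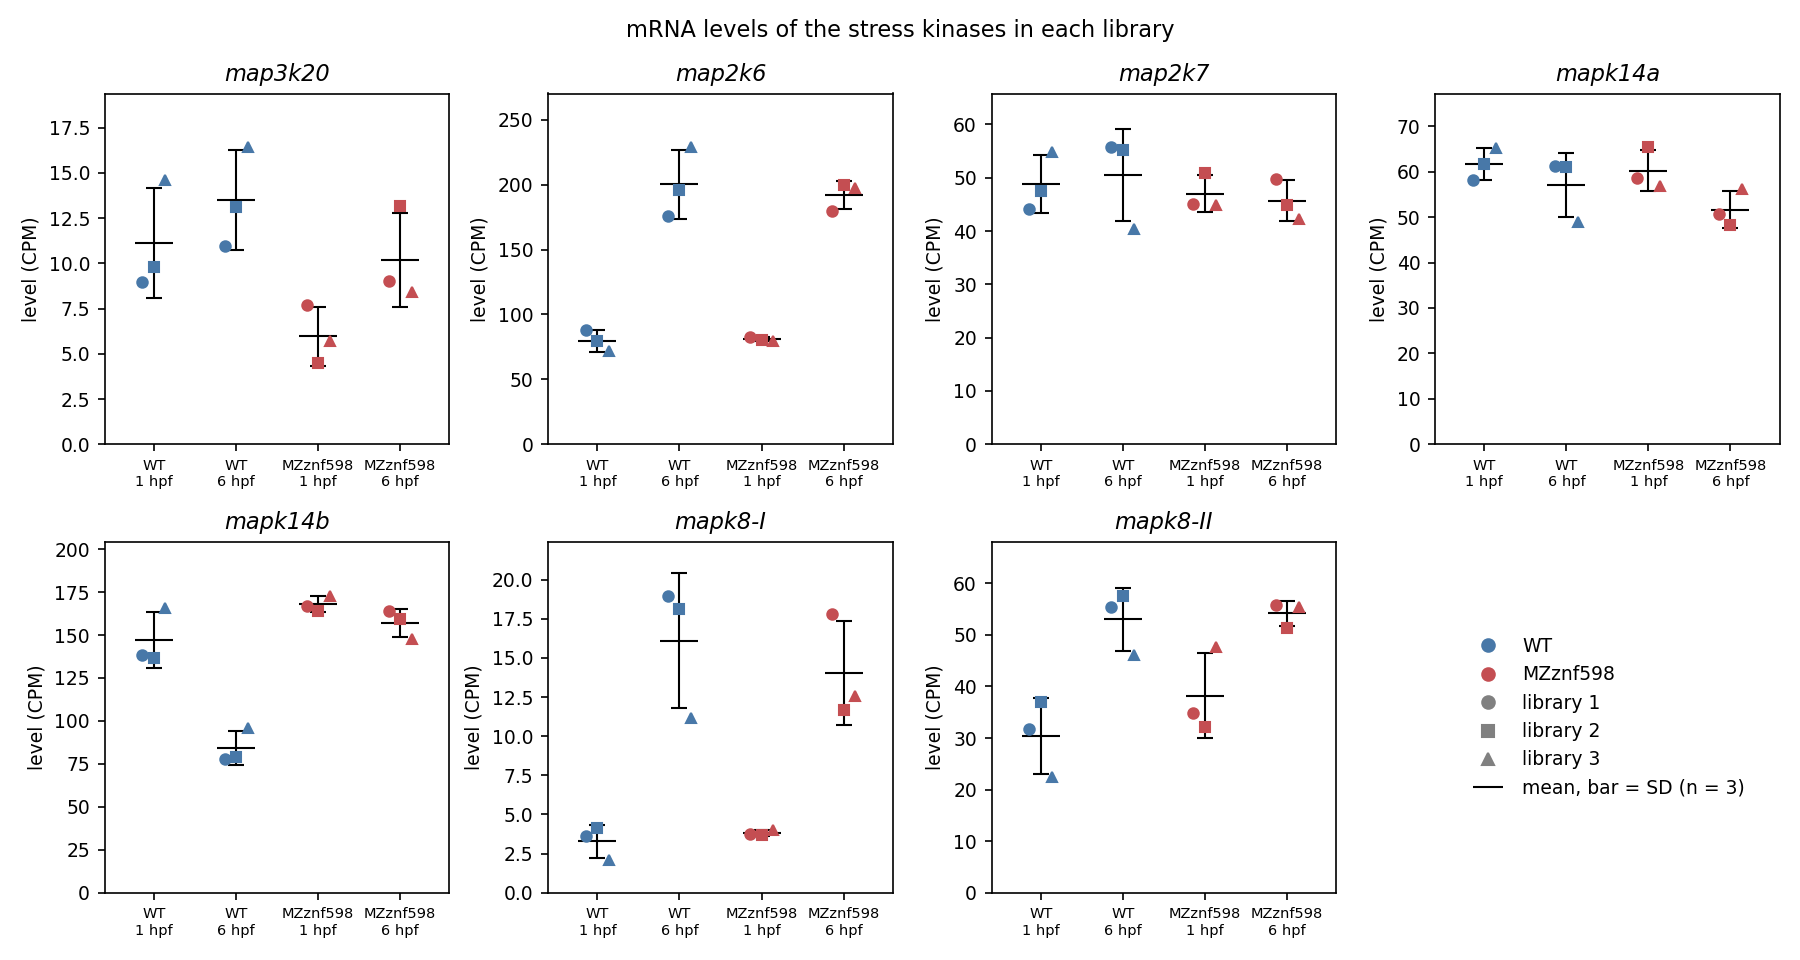
Level of each kinase mRNA in CPM (y axis, from 0, a scale of its own in each panel) in the 12 libraries, by group (x axis); points are libraries, with the marker giving the library number, horizontal lines are means and bars are SD (n = 3). For mapk14b the 3 WT libraries of 6 hpf lie between 78.1 and 95.7 CPM and the 3 MZznf598 libraries of that stage between 147.9 and 163.9 CPM.

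At 1 hpf the log2 difference of mapk14b was 0.19 (SE 0.10) and was not called (adjusted p = 0.324 in edgeR). Without both WT libraries numbered 3 it was 0.29 and was called (adjusted p = 0.00289), in a fit that called 12.1% of all genes at this stage. The 6 hpf difference exceeded the 1 hpf difference by 0.71 (SE 0.14) on the log2 scale. This genotype by stage interaction had an adjusted p of 0.0267 in edgeR and was not called, and none of the 7 genes was, while 0.449% of all genes tested were. Only mapk14b of the 7 had an unadjusted p below 0.05 for the interaction, against 11.03% of all genes tested. The interaction of mapk14b passed the threshold in DESeq2 (adjusted p = 0.00119), in edgeR's likelihood ratio test (0.000956), without WT library 3 of 6 hpf (0.80, adjusted p = 0.00296) and without both WT libraries numbered 3 (0.71, adjusted p = 0.000184). Of all genes, 1.76% were called for the interaction by DESeq2, 1.85% by the likelihood ratio test and 3.28% without both WT libraries numbered 3. Apart from left-out libraries and settings chosen after seeing the data, the interaction of mapk14b stayed uncalled in 7 of 10 settings. Among these 7 was the fit that paired same-numbered libraries of one genotype. The settings that called it included a threshold of 0.05, which the main adjusted p of 0.0267 already met. The interaction of mapk14b also stayed uncalled in 11 of the 12 fits without 1 library, over which the adjusted p ran from 0.00296 to 0.0856 in edgeR.

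**Figure D2:**
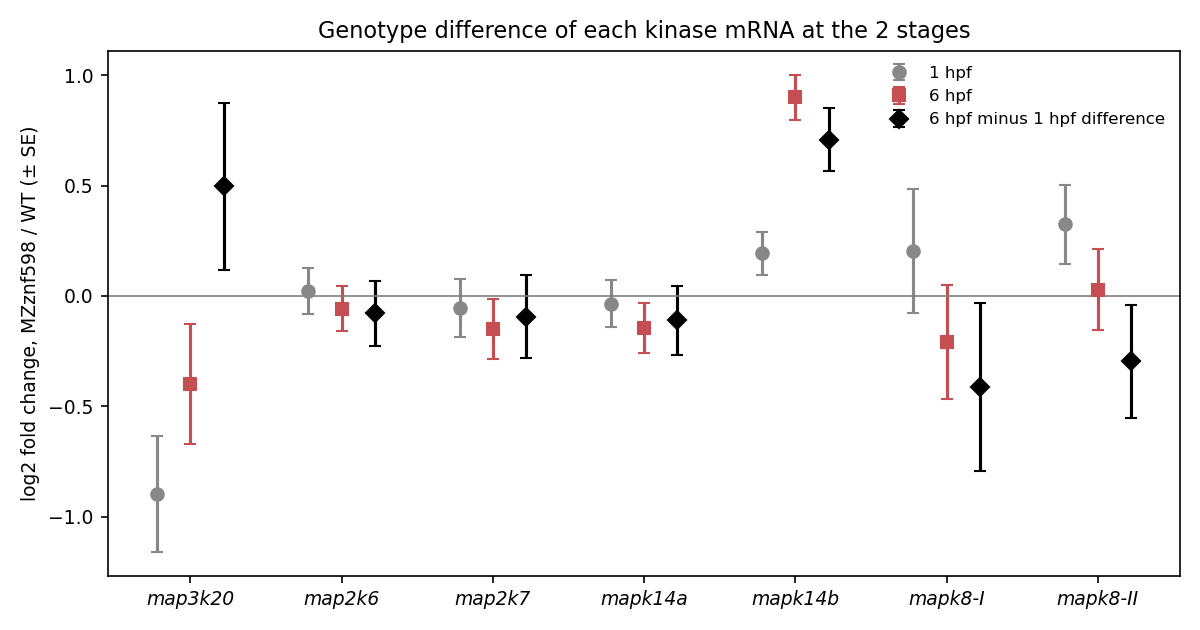
Log2 fold change of MZznf598 over WT (y axis) for each kinase gene (x axis) at 1 hpf (grey circles) and 6 hpf (red squares), and the 6 hpf value minus the 1 hpf value (black diamonds), each with its SE derived from edgeR's test. At 6 hpf mapk14b lies at 0.90, while the other 6 genes lie between -0.40 and 0.029.

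The other p38α gene, mapk14a (ENSDARG00000000857), gave a different picture. Its WT libraries stood at 58.2, 61.7 and 65.3 CPM at 1 hpf and at 61.2, 61.0 and 48.9 CPM at 6 hpf. Its MZznf598 libraries stood at 58.5, 65.4 and 56.8 CPM at 1 hpf and at 50.6, 48.2 and 56.1 CPM at 6 hpf. All 4 groups overlapped with their neighbours in the order of means, and the highest mean was 1.20 times the lowest. Within MZznf598 every 6 hpf library lay below every 1 hpf library, with a narrow gap between 56.1 and 56.8 CPM. That stage change was -0.22 (SE 0.11, adjusted p = 0.0789 in edgeR) and was not called. Where the stages of a kinase gene were apart, the share of all genes with stages apart is not given. Between the stages, 70.4% of all genes tested were called in WT and 70.0% in MZznf598. Such separation is therefore not read as unusual. The genotype difference of mapk14a was -0.15 (SE 0.11, adjusted p = 0.508 in edgeR) at 6 hpf and -0.034 (SE 0.11, adjusted p = 0.948) at 1 hpf.

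The ratio of the p38α genes within a library does not depend on how the libraries are scaled. In WT embryos mapk14b made up 70.4%, 68.9% and 71.8% of the reads of both genes at 1 hpf. At 6 hpf it made up 56.1%, 56.4% and 66.2%. WT library 3 of 6 hpf thus lay above the other 2 but below every 1 hpf library. In MZznf598 embryos the share was 74.0%, 71.5% and 75.3% at 1 hpf and 76.4%, 76.8% and 72.5% at 6 hpf, so the stages overlapped. The log2 ratio of mapk14b to mapk14a counts at 6 hpf was 0.56 ± 0.35 (SD, n = 3) in WT and 1.61 ± 0.18 (SD, n = 3) in MZznf598. The groups did not overlap and the difference was 1.04 (exact permutation test, two-sided, p = 0.1, the smallest that 3 against 3 can give). At 1 hpf the difference was 0.23, with overlapping libraries (exact permutation p = 0.2). From 1 to 6 hpf the log2 ratio fell by 0.68 in WT (exact permutation p = 0.1), without overlap. The corresponding difference in MZznf598 was 0.12 (exact permutation p = 0.4). These were 4 of 8 such ratio comparisons, and with the smallest possible p of 0.1 none could pass 0.05. Without both WT libraries numbered 3 the genotype difference was 1.24 at 6 hpf and 0.28 at 1 hpf, and the genotypes then overlapped at neither stage.

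**Figure D3:**
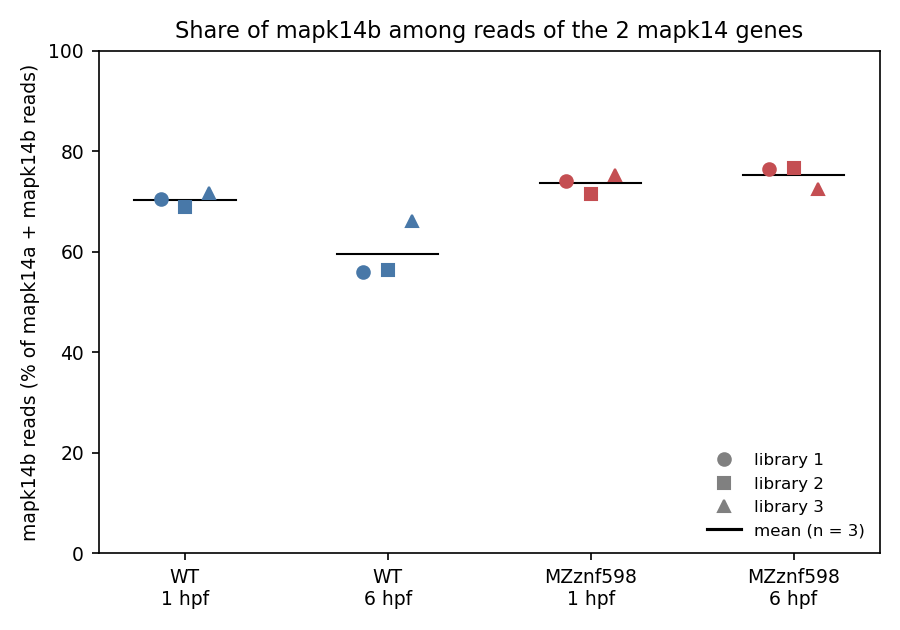
Reads of mapk14b as a percentage of the reads of mapk14a and mapk14b together (y axis, 0 to 100%) in the 12 libraries, by group (x axis); points are libraries and lines are means (n = 3). The WT libraries of 6 hpf lie between 56.1% and 66.2%, below all 9 others, which lie between 68.9% and 76.8%.

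Added together, both p38α genes stood at 208.7 ± 19.4 CPM (SD, n = 3) in WT and 228.2 ± 2.62 CPM (SD, n = 3) in MZznf598 at 1 hpf. At 6 hpf the sum was 141.2 ± 2.95 CPM (SD, n = 3) in WT and 208.6 ± 5.39 CPM (SD, n = 3) in MZznf598. Reads that fit more than 1 place in the genome were not counted, so a stretch shared by both copies adds to neither. In whole embryos a change in mRNA per cell and a change in the share of cells that hold the mRNA cannot be told apart.

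At the top of the cascade, map3k20 (ENSDARG00000006978), the gene of Zak, was the only one of the 7 whose libraries did not overlap between the genotypes at 1 hpf. The WT libraries stood at 8.94, 9.81 and 14.6 CPM. The MZznf598 libraries stood at 7.70, 4.47 and 5.70 CPM, all below the lowest WT library, with a mean 53.6% of that in WT. The log2 difference was -0.90 (SE 0.26). It had an unadjusted p of 0.00474 and an adjusted p of 0.0570 in edgeR, so it was not called, and it alone of the 7 had an unadjusted p below 0.05, against 19.1% of all genes tested. None of the 7 genes was called at 1 hpf, where 3.83% of all genes tested were, and DESeq2 called none of the 7 and 6.66% of all genes. Libraries of the genotypes were free of overlap at this stage in 25.8% of all genes tested.

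The 1 hpf value of map3k20 leaned on WT library 3 and, the other way, on MZznf598 library 1, each the highest of its group. The difference was -0.66 without the WT library and -1.12 without the MZznf598 library. Without both WT libraries numbered 3 it was also -0.66 (adjusted p = 0.0521), and over all 12 fits that left out 1 library the adjusted p ran from 0.0371 to 0.219. At 6 hpf the WT libraries stood at 10.9, 13.1 and 16.4 CPM and the MZznf598 libraries at 8.99, 13.1 and 8.42 CPM. These groups overlapped, and the difference was -0.40 (SE 0.27, adjusted p = 0.445 in edgeR). In the order of the 4 group means, MZznf598 at 1 hpf came lowest and apart from MZznf598 at 6 hpf, and from there on each group overlapped with the next.

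Relatives of map3k20 are named here for their names and not by the rule for other genes. The gene map3k20b had between 0 and 6 counts in every library and was not tested. For map3k22, which the RefSeq gene table also lists under the name map3k20, the WT libraries gave 2.50, 8.66 and 5.15 CPM at 1 hpf and 1.32, 1.33 and 0.508 CPM at 6 hpf. The MZznf598 libraries gave 8.41, 5.45 and 12.1 CPM at 1 hpf and 1.67, 1.02 and 3.71 CPM at 6 hpf. From 1 to 6 hpf map3k22 fell by 2.32 in WT (SE 0.58, adjusted p = 0.00250 in edgeR). Its genotype difference was 0.67 (SE 0.45, adjusted p = 0.507 in edgeR) at 1 hpf, where that of map3k20 was -0.90. At 6 hpf the difference of map3k22 was 0.98 (SE 0.67, adjusted p = 0.441 in edgeR). It was not called at either stage, and the genotypes overlapped at both.

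Of the MAP2 kinases, map2k6 (ENSDARG00000099184), which activates p38, rose between the stages in both genotypes, and map2k7 (ENSDARG00000008279), which activates JNK, was not called in any comparison with TMM scaling. For map2k6 the WT libraries gave 87.7, 79.3 and 71.5 CPM at 1 hpf and 176.0, 195.6 and 228.9 CPM at 6 hpf. The MZznf598 libraries gave 82.6, 80.0 and 79.8 CPM at 1 hpf and 179.9, 199.8 and 197.3 CPM at 6 hpf. Stages were apart and genotypes overlapped at each stage. Its genotype differences were 0.022 (SE 0.10, adjusted p = 0.976 in edgeR) at 1 hpf and -0.057 (SE 0.10, adjusted p = 0.814) at 6 hpf.

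For map2k7 the WT libraries stood at 44.2, 47.5 and 54.9 CPM at 1 hpf and at 55.8, 55.1 and 40.5 CPM at 6 hpf. The MZznf598 libraries stood at 45.1, 51.0 and 45 CPM at 1 hpf and at 49.8, 45 and 42.2 CPM at 6 hpf. All neighbouring groups overlapped, and the highest mean was 1.10 times the lowest. The genotype differences were -0.055 (SE 0.13, adjusted p = 0.927 in edgeR) at 1 hpf and -0.15 (SE 0.14, adjusted p = 0.592) at 6 hpf.

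The JNK1 genes encode kinases that phosphorylate c-Jun and related factors. For mapk8-I the WT libraries gave 3.62, 4.13 and 2.12 CPM at 1 hpf and 19.0, 18.2 and 11.2 CPM at 6 hpf. The MZznf598 libraries gave 3.74, 3.71 and 4.02 CPM at 1 hpf and 17.8, 11.7 and 12.6 CPM at 6 hpf. Every 6 hpf library lay above every 1 hpf library. For mapk8-II the WT libraries gave 31.7, 37.0 and 22.5 CPM at 1 hpf and 55.4, 57.6 and 46.1 CPM at 6 hpf. The MZznf598 libraries gave 34.8, 32.2 and 47.6 CPM at 1 hpf and 55.8, 51.4 and 55.4 CPM at 6 hpf. In WT the stages were apart for mapk8-II, and in MZznf598 they were apart with a narrow gap between 47.6 and 51.4 CPM.

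Neither JNK1 gene was called between genotypes. For mapk8-I the log2 differences were 0.20 (SE 0.28, adjusted p = 0.823 in edgeR) at 1 hpf and -0.21 (SE 0.26, adjusted p = 0.707) at 6 hpf. For mapk8-II they were 0.33 (SE 0.18, adjusted p = 0.377) and 0.029 (SE 0.18, adjusted p = 0.954). The log2 ratio of mapk8-II to mapk8-I counts fell by 1.48 from 1 to 6 hpf in WT and by 1.33 in MZznf598, without overlap in either (exact permutation p = 0.1 each). Its genotype differences were 0.068 (exact permutation p = 0.7) at 1 hpf and 0.22 (exact permutation p = 0.3) at 6 hpf.

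Across the MZT in WT embryos, 3 of the 7 genes rose, 1 fell and 3 were not called, while 36.5% of all genes tested rose and 33.9% fell. In all, 4 of the 7 were called, against 70.4% of all genes, and with 7 genes no difference is read from this. The rise was 2.28 (SE 0.27, adjusted p = 4.19e-06 in edgeR) for mapk8-I, 1.33 (SE 0.10, adjusted p = 6.13e-08) for map2k6 and 0.80 (SE 0.18, adjusted p = 0.00116) for mapk8-II. The mRNA of mapk14b fell by 0.81 (SE 0.10, adjusted p = 6.50e-06), to 57.3% of its 1 hpf mean. Without both WT libraries numbered 3 the same 4 genes were called, with -0.80 for mapk14b, 2.27 for mapk8-I, 1.16 for map2k6 and 0.72 for mapk8-II. Those not called were map3k20 at 0.28 (SE 0.26), mapk14a at -0.11 (SE 0.11) and map2k7 at 0.051 (SE 0.13).

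In MZznf598 embryos 2 of the 7 genes rose and none fell, while 36.3% of all genes tested rose, 33.7% fell and 70.0% were called in all. The rise was 1.87 (SE 0.27, adjusted p = 2.77e-05 in edgeR) for mapk8-I and 1.25 (SE 0.10, adjusted p = 1.13e-07) for map2k6. For mapk14b the value was -0.098 (SE 0.10, adjusted p = 0.378). For mapk8-II it was 0.50 (SE 0.18, adjusted p = 0.0207), and 0.52 (adjusted p = 0.00425) and called when same-numbered libraries of MZznf598 were paired as blocks. Left out singly, library 3 of either genotype at 1 hpf also brought it past the threshold, with 0.69 (adjusted p = 0.00426) without the MZznf598 library and 0.50 (adjusted p = 0.00637) without the WT library. For map3k20 it was 0.77 (SE 0.27, adjusted p = 0.0195), and 1.00 (adjusted p = 0.00901) and called without MZznf598 library 1 of 1 hpf. Without both WT libraries numbered 3, both were called, at 0.52 (adjusted p = 0.00222) for mapk8-II and 0.78 (adjusted p = 0.00403) for map3k20, in a fit that called 77.2% of all genes for this comparison. Both stage comparisons share their libraries with the genotype comparisons.

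The change between the stages depends on how the libraries are scaled, and the cause of this was not tested. With library totals in place of TMM the median of all genes moved from -0.018 to -0.55 in WT and from -0.012 to -0.54 in MZznf598, and the WT calls went from 5783 higher and 5366 lower to 4290 higher and 7399 lower. On that scale mapk14b was -1.33 in WT and -0.63 in MZznf598, below the median in WT and close to it in MZznf598, and both were called (adjusted p = 1.24e-08 and 1.60e-05 in edgeR). The rises of mapk8-I and map2k6 were called in both genotypes under all 4 scalings tried. For mapk8-II the rise in WT was lost with library totals (0.26, adjusted p = 0.238). Between genotypes at 6 hpf, mapk14b was called under all 4 scalings, with values from 0.88 to 0.90.

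**Figure D4:**
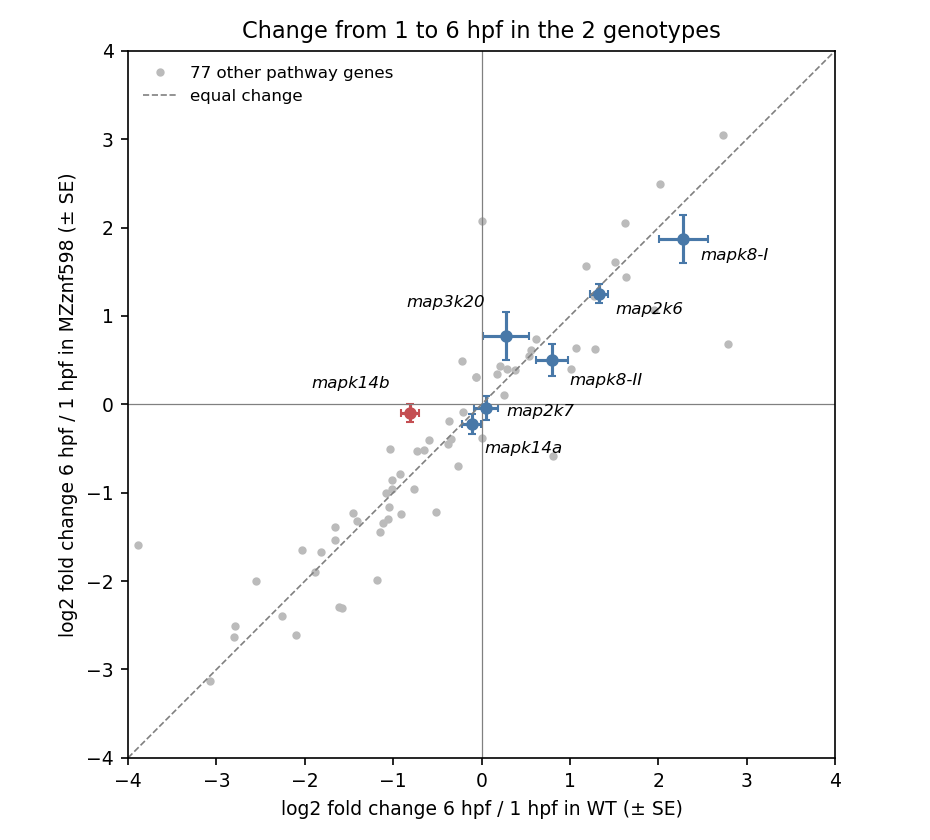
Log2 fold change from 1 to 6 hpf in WT (x axis) and in MZznf598 (y axis) of the 7 kinase genes (named points, bars are SE derived from edgeR's test) and of 77 other genes of the pathway (grey); 14 of the grey genes lie outside the axes, and the dashed line marks equal change. The point of mapk14b lies at -0.81 in WT and -0.098 in MZznf598. The axes share the scaling of the libraries but no library.

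The rest of the pathway was read from 7 lists with 100 names, of which 4 had no match. They gave 97 genes, and 77 of these were tested. At 6 hpf, 1 of the 77 was called higher in MZznf598 and none lower, while 3.51% of all genes were called in either direction. The median difference of the 77 was 0.089, against -0.013 over all genes. The gene called was taok2a, a TAO kinase of the MAP3 level, at 398.8 ± 24.9 CPM (SD, n = 3) in WT and 536.0 ± 22.7 CPM (SD, n = 3) in MZznf598 (log2 fold change 0.43, SE 0.07, adjusted p = 0.00341 in edgeR). At 6 hpf, 18 of the 77 had an unadjusted p below 0.05 in edgeR, against 22.2% of all genes. DESeq2 called 6 at that stage, against 7.02% of all genes. At 1 hpf and for the interaction edgeR called none of the 77. At an unadjusted p below 0.05 there were 11 in each, against 19.1% of all genes at 1 hpf and 11.03% for the interaction. DESeq2 called 1 in each, against 6.66% and 1.76% of all genes. The fit without both WT libraries numbered 3 tested 76 of the pathway genes. It called 4 higher and 3 lower at 6 hpf, which is 9.21% against 11.3% of all genes, and taok2a was at 0.39 (adjusted p = 0.000176 in edgeR). At 1 hpf 1 was then higher and 2 were lower, which is 3.95% against 12.1% of all genes. For the interaction none was called, against 3.28% of all genes.

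Across the MZT in WT, 28 of the 77 pathway genes rose and 29 fell, while 36.5% of all genes tested rose and 33.9% fell. The median of the 77 was -0.064 against -0.018 over all genes. The counts of each list below stand beside these same shares, and with so few genes no difference is read from them. In MZznf598 31 rose and 29 fell, while 36.3% of all genes tested rose and 33.7% fell. With library totals the counts became 23 higher and 38 lower in WT and 21 higher and 39 lower in MZznf598. Of all 15829 genes, 4290 were then higher and 7399 lower in WT, and 4255 higher and 7369 lower in MZznf598. Apart from map2k2, map2k4b and mapk13, the genes named below kept their direction under the 4 scalings. Their values are log2 changes in WT from 1 to 6 hpf with the edgeR call.

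Among the other MAP kinases 5 of 10 rose and 3 fell. The gene mapk12, which encodes the further p38 kinase p38γ, had 1 count over the 3 WT libraries of 1 hpf and reached 110.1 ± 11.3 CPM (SD, n = 3) at 6 hpf. The ratio of the scaled pooled counts was 4686, with an exact binomial 95% interval from 840.3 to 185184 that covers counting error only. The gene mapk11, which encodes p38β and is named here after its values were seen, had no count in WT at 1 hpf and reached 8.83 ± 0.85 CPM (SD, n = 3), at least 36.0-fold higher than a floor of 3 counts in a library. The atypical kinase mapk6 (ERK3) rose by 1.5 (SE 0.07), mapk7 (ERK5) fell by 1.02 (SE 0.13) and mapk9 (JNK2) fell by 1.05 (SE 0.18). In MZznf598 at 6 hpf mapk12 stood at 104.4 ± 6.13 CPM (SD, n = 3), with a genotype difference of -0.078 (SE 0.13). There mapk11 stood at 6.16 ± 1.21 CPM (SD, n = 3), all libraries below those of WT. Its difference of -0.52 (SE 0.27, adjusted p = 0.305 in edgeR) was not called. The further p38 gene mapk13 (p38δ), also named after its values were seen, stood at 13.4 ± 5.64 CPM (SD, n = 3) at 1 hpf and 12.7 ± 7.04 CPM (SD, n = 3) at 6 hpf in WT and was not called (-0.064, SE 0.38). In MZznf598 at 6 hpf mapk13 stood at 20.2 ± 2.35 CPM (SD, n = 3), all libraries above those of WT. This difference of 0.65 (SE 0.39, adjusted p = 0.370 in edgeR) was not called. Libraries of the genotypes did not overlap at 6 hpf in 28.0% of all genes tested.

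Of the other MAP2 kinases 2 of 6 rose and 1 fell. Both that rose act on ERK: map2k2b by 1.95 (SE 0.28) and map2k2 by 0.37 (SE 0.07), the latter -0.16 and not called with library totals. The gene that fell was map2k4, an activator of JNK and p38, by 1.14 (SE 0.23). The second copy map2k4b, named after its values were seen, was 0.20 (SE 0.10) and not called. It stood at 61.5 ± 8.75 CPM (SD, n = 3) at 1 hpf and 70.8 ± 3.37 CPM (SD, n = 3) at 6 hpf in WT. Its value was 0.34 and called with RLE scaling and -0.32 and called with library totals. Of the other MAP3 and TAO kinases 4 of 18 rose and 10 fell, against 36.5% and 33.9% of all genes tested. With 18 genes no difference is read from this. The rise was 4.10 (SE 0.37) for map3k21, a mixed-lineage kinase like Zak, and 4.71 (SE 0.44) for map3k14a, the kinase of non-canonical NF-κB signalling. Of those that fell, map3k3 fell by 2.26 (SE 0.13) and taok1b fell by 2.80 (SE 0.17). The gene taok1, named after its values were seen, rose by 1.02 (SE 0.18) and was 0.47 and not called with library totals.

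Of the scaffolds and adaptors 2 of 8 rose and 4 fell. The JNK scaffold mapk8ip3 rose by 1.62 (SE 0.20) and strap by 0.56 (SE 0.14), the latter 0.031 and not called with library totals. The JNK scaffold spag9 fell by 1.06 (SE 0.09), and tab3, a partner of the MAP3 kinase Tak1, fell by 0.65 (SE 0.12).

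Of the kinases that p38 and ERK switch on, 2 of 7 rose and 4 fell. The p38 substrate mapkapk3 had 1 count over the 3 WT libraries of 1 hpf and reached 89.8 ± 28.2 CPM (SD, n = 3) at 6 hpf. In MZznf598 it stood at 49.7 ± 3.04 CPM (SD, n = 3) at 6 hpf, all libraries below those of WT, with a difference of -0.85 (SE 0.20, adjusted p = 0.0178 in edgeR) that was not called. Of both mknk2 genes, which encode kinases of the cap-binding factor eIF4E, ENSDARG00000015164 rose by 1.07 (SE 0.12), while ENSDARG00000011373, named after its values were seen, fell by 3.07 (SE 0.25). The related mknk1 fell by 2.78 (SE 0.20). The p38 and ERK target rps6ka4 (Msk2) fell by 2.55 (SE 0.14).

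Of the MAP kinase phosphatases 5 of 11 rose and 3 fell. The ERK phosphatase dusp6 had no count in WT at 1 hpf and reached 74.2 ± 6.71 CPM (SD, n = 3), at least 302.8-fold higher than the floor. A ppm1d gene (ENSDARG00000009273), encoding a phosphatase that acts on p38, rose by 1.27 (SE 0.08). The other ppm1d gene (ENSDARG00000021380), named after its values were seen, fell by 0.91 (SE 0.17). The phosphatase genes dusp8 and dusp22a fell by 1.66 (SE 0.25) and 2.10 (SE 0.31). Of the AP-1, ATF and immediate early genes 8 of 17 rose and 4 fell. Both gadd45b genes, which encode stress sensors that bind a MAP3 kinase, rose, by 7.68 (SE 0.17) for ENSDARG00000027744 and 8.38 (SE 0.22) for ENSDARG00000013576. Over the 3 WT libraries of 1 hpf they had 15 and 17 counts. The ratios of the scaled pooled counts were 211.1 and 344.7. Their exact binomial 95% intervals ran from 127.6 to 378.1 and from 214.9 to 592.5, for counting error only. For changes from so few counts these SE values are too small. The p38 and JNK target atf2 fell by 1.66 (SE 0.20) and atf7 (ENSDARG00000055481) by 1.41 (SE 0.17).

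**Figure D5:**
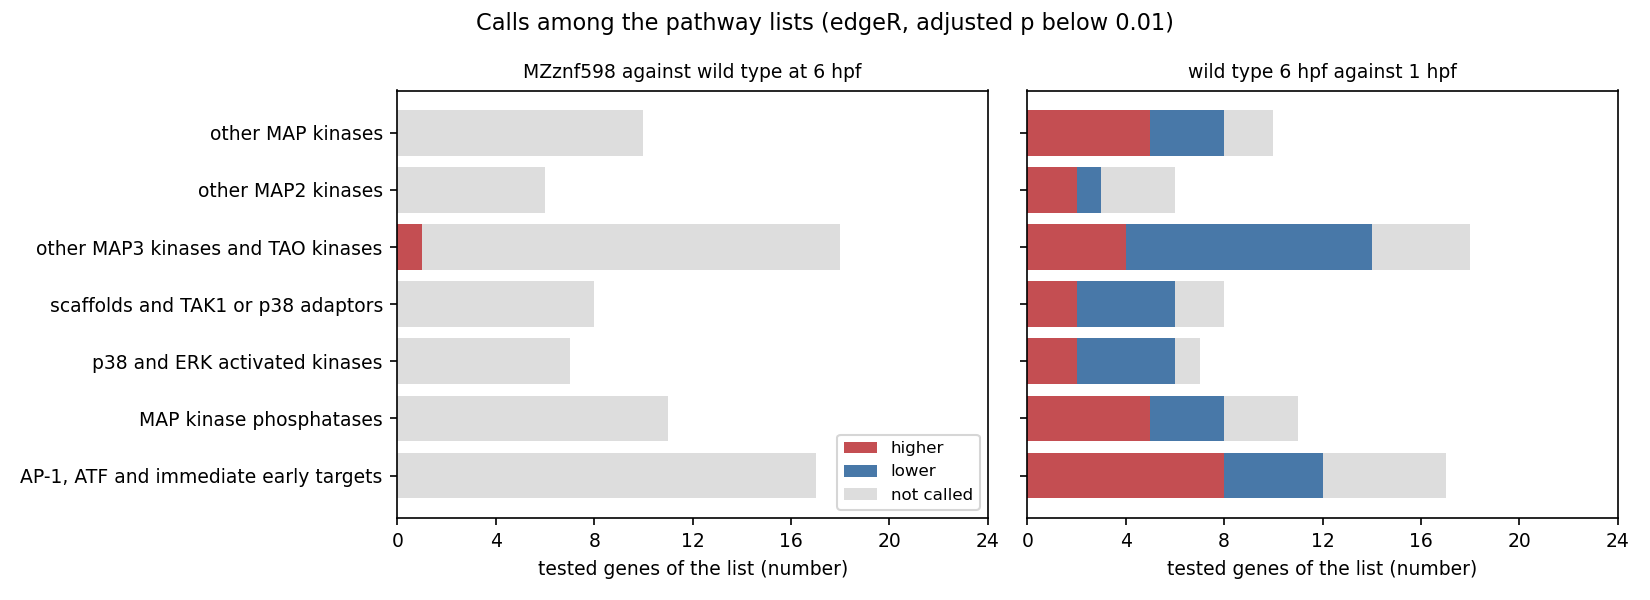
Number of tested genes in each of the 7 pathway lists (x axis) that edgeR called higher (red), lower (blue) or did not call (grey) at an adjusted p below 0.01, between genotypes at 6 hpf (left) and between the stages in WT (right). On the left 1 gene of 77 is called, taok2a, and on the right 28 are higher and 29 lower.

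The genes whose profile over the 12 libraries lay nearest to that of mapk14b were urb1, zcchc7 and slc25a23a, at Euclidean distances of 0.40, 0.47 and 0.47 between row-centred log2 CPM values. Since they were picked for this likeness, their values are a description. At 6 hpf urb1 stood at 77.1 ± 0.94 CPM (SD, n = 3) in WT and 131.8 ± 4.47 CPM (SD, n = 3) in MZznf598. For map3k20 the nearest were pkd1l2b, calu and ern1, at distances of 0.86, 0.89 and 0.90. At 1 hpf ern1, the gene of the endoplasmic reticulum stress sensor Ire1, stood at 61.5 ± 6.21 CPM (SD, n = 3) in WT and 29.2 ± 0.55 CPM (SD, n = 3) in MZznf598.

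The tested genes next to mapk14b in the RefSeq gene order were hipk1b, b3galt6 and tmem167b on one side and srpk1b, kif21b and timeless on the other. None of these 6 was called between genotypes at 6 hpf in edgeR, while 3.51% of all genes tested were. Their log2 differences lay between -0.76 and 0.094. One of them, b3galt6, had an unadjusted p below 0.05 (0.0106), against 22.2% of all genes tested. At 1 hpf kif21b was called lower in MZznf598, at -0.60 (SE 0.13, adjusted p = 0.00925 in edgeR), while 3.83% of all genes tested were called. The 1 hpf difference of b3galt6 was larger, at -0.83 (SE 0.24, adjusted p = 0.0521), and was not called. For b3galt6, hipk1b, srpk1b and kif21b all MZznf598 libraries lay below all WT libraries at 1 hpf, and for tmem167b and timeless the genotypes overlapped. Libraries were free of overlap in either direction at this stage in 25.8% of all genes tested.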

How the data were processed

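RNA was measured in 12 libraries of pooled zebrafish embryos, 3 per group. According to the study's methods and the labels, the authors removed ribosomal RNA, made stranded libraries, trimmed the single-end reads, aligned them to GRCz11 with STAR 2.7.8a, kept unique alignments and used featureCounts to count reads for each Ensembl gene. Which annotation release and which strand setting were used is not given in the sources used here, so reads from an overlapping or antisense gene cannot be told apart. The deposited values are raw counts for 25432 genes per library.

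Symbols came from a name table of Ensembl IDs, which named 23608 of the genes, and from RefSeq (GRCz12tu, names and gene order only). Genes above 1 CPM in at least 3 libraries were kept (15829). They were fitted with edgeR 4.0.16 in R 4.3.3 (TMM, 4 group means, robust quasi-likelihood, 8 residual degrees of freedom, two-sided), with Benjamini-Hochberg adjustment over all genes tested and calls at an adjusted p below 0.01. The common biological coefficient of variation was 0.15. Each SE of a log2 fold change is its absolute value divided by the square root of the F statistic of the test. Such an SE can be too small for large changes from few counts. A count of 0 allows up to 3 counts, which is 0.197 to 0.508 CPM by library, for counting error only. The code was tested on simulated data.

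The members and gene lists were chosen with earlier results of these data known. Named were all members, znf598, in each list up to 2 genes called between genotypes and up to 2 called in each direction between the stages in WT by lowest adjusted p, the 3 nearest profiles of mapk14b and map3k20, and 3 tested neighbours on each side of mapk14b. Outside this rule mapk11, mapk13, map2k4b, map3k20b, map3k22, taok1, the second mknk2 gene and the second ppm1d gene are also named. Same-numbered libraries of one genotype deviated together across the stages (r from 0.13 to 0.21 in all 6 pairs). Those of different genotypes at one stage did not (r from -0.09 to 0.07). The main fit used no block, so its stage and interaction p-values leave this pairing out. The alternative fit with a block within genotype took same-numbered libraries of one genotype as paired. The alternative fit with a replicate block over all libraries placed same-numbered libraries of both genotypes in a shared block. Alternatives covered scaling, filters, tools (DESeq2 1.42.0), thresholds, blocks and left-out libraries.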

Additional observations from a re-analysis of the deposited data

How the results depend on the processing

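Of the 784 values recomputed for the 7 genes, apart from the settings chosen after seeing the data, 744 kept their direction and their side of the threshold, 21 changed sign, 16 passed the threshold newly and 3 fell back. The cause was not tested. RLE factors, which moved the median of all genes between the stages to 0.12 in WT and 0.13 in MZznf598, gave 0.024 for mapk14a in WT and, in MZznf598, 0.044 for mapk14b and 0.098 for map2k7, and DESeq2 gave 0.026, 0.044 and 0.098. For map2k7 upper quartile factors gave 0.017 in MZznf598, and no filter on low counts gave -0.040 in WT. Between the stages in MZznf598, 4 genes were called higher with RLE factors, with DESeq2, at an adjusted p below 0.05, from the 6 libraries compared alone and without both WT libraries numbered 3, against 2. Of all genes, these settings called from 39.2% to 39.9% higher, against 36.3%. For the interaction 1 gene, mapk14b, was called higher at an adjusted p below 0.05, with DESeq2, with the likelihood ratio test and without both WT libraries numbered 3. Of all genes, these settings called 0.727%, 0.998%, 1.05% and 1.46% higher. Against a 1.5-fold change 0 genes were called higher at 6 hpf and 0 lower between the stages in WT. Of all genes, 0.404% were then called higher at 6 hpf and 4021 of 15829 lower between the stages in WT.

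Chosen after seeing the data were the fit without both WT libraries numbered 3 and that with library totals. The former called 1 gene higher at 1 hpf, mapk14b, and 6.34% of all genes. It gave -0.062 for mapk8-II and 0.049 for map2k6 at 6 hpf, 0.0059 for mapk14a, -0.022 for mapk8-I, -0.050 for map2k6 and 0.035 for map2k7 at 1 hpf, 0.10 for the interaction of map2k6, and 0.034 for mapk14a between the stages in WT. Library totals called 3 genes lower between the stages in WT and 3 in MZznf598, against 7399 and 7369 of all 15829 genes. They gave -0.0057 for map2k6 at 1 hpf, -0.25 for map3k20 and -0.48 for map2k7 between the stages in WT, and -0.030 for mapk8-II in MZznf598.

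With 1 library left out at a time, the log2 differences at 6 hpf ran from -0.066 to 0.081 for mapk8-II and from -0.15 to 0.045 for map2k6. At 1 hpf they ran from -0.098 to 0.0064 for mapk14a, from -0.023 to 0.39 for mapk8-I, from -0.052 to 0.095 for map2k6 and from -0.13 to 0.032 for map2k7. The interaction of map2k6 ran from -0.18 to 0.021. For the interaction 0 or 1 genes were called, the 1 being mapk14b without WT library 3 of 6 hpf, in a fit that called 0.812% of all genes. Between the stages map2k7 ran from -0.037 to 0.17 in WT and from -0.13 to 0.017 in MZznf598. The genotype difference of the mapk8-II to mapk8-I log2 ratio at 1 hpf ran from -0.064 to 0.16.

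As a replicate block over all libraries, the numbers changed no call, with 0.91 (adjusted p = 0.000345 in edgeR) for mapk14b at 6 hpf. The block within genotype changed 1 call, that of mapk8-II in MZznf598. Pathway genes called at 6 hpf numbered 1 in edgeR and 6 in DESeq2, of 77, while DESeq2 called 7.02% of all genes and edgeR 3.51%. At these depths map3k20 and mapk8-I, with the fewest counts, had the widest errors.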
